A study of Mus musculus with 4 samples.

Results

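Type A intercalated cells are the acid-secreting cells of the collecting duct and connecting tubule. They were picked out of droplet single-cell RNA libraries of whole mouse kidney, and 56 of 31041 kept barcodes (37041 deposited) qualified. A barcode was kept with at least 500 UMIs (unique molecules counted), at least 200 genes and at most 50% of UMIs on mitochondrially encoded genes. It was called type A when Atp6v1g3 and Atp6v0d2 together gave at least 3 UMIs and Slc4a1, Aqp6 and Kit together at least 1, with 0 UMIs of Slc26a4 and of Ptprc and at most 2 of C1qa, C1qb and C1qc together. The mutant mice carried a TrnE point mutation, which alters the mitochondrial tRNA that decodes glutamate, with a mutation load (the share of mutant mitochondrial DNA) of 79% in mutant 1 and 76% in mutant 2. They were set against 2 wild-type C57BL/6J mice, and each mouse gave 1 library of viable sorted cells from enzymatically dissociated kidney. The sources used here give neither age, sex and litter nor the tissue behind the mutation load. The type A cells numbered 24 in mutant 1 and 17 in mutant 2, against 9 in wild type 1 and 6 in wild type 2.

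Type A cells pump protons into the urine with a vacuolar proton pump in the apical membrane and return bicarbonate to the blood through the anion exchanger AE1, the product of Slc4a1. Aqp6 is an intracellular channel of these cells, and Kit is a receptor tyrosine kinase found on them. Type B cells run the reverse direction and carry the bicarbonate exchanger pendrin, the product of Slc26a4. Both kinds depend on the forkhead factor Foxi1, and both are rich in mitochondria, whose tRNAs are needed to translate the proteins that mitochondrial DNA encodes.

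The mutated gene is mt-Te, which GENCODE M21 places at chrM:14071-14139 on the minus strand of the build the files use. It is shown here in its reference form because it is the gene the mice differ by. The sources used here do not name the base changed in the mutants.
mt-Te: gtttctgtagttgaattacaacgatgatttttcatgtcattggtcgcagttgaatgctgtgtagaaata

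Promoters of a pair of proton pump subunits that mark intercalated cells are shown because Foxi1 is a known activator of such genes. They come from RefSeq on GRCm38.p6 and run from 250 bases before to 50 bases after the start of the gene. Atp6v1g3 lies at chr1:138273488-138273787 and Atp6v1b1 at chr6:83742767-83743066, both on the plus strand. Capitals mark matches to the forkhead words GTAAACA or ACAAACA on either strand.
Atp6v1g3: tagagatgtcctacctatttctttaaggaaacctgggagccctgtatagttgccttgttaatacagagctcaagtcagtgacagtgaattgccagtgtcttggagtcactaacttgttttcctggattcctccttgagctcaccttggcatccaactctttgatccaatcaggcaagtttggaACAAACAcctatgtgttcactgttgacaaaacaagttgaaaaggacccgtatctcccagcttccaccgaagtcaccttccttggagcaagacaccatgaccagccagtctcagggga
Atp6v1b1: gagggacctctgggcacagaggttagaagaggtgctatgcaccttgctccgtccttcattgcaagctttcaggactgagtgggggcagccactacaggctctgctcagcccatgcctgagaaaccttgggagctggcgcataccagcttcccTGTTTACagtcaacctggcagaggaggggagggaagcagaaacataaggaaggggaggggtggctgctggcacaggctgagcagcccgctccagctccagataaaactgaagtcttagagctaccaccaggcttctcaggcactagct
Each held 1 match, and 9.95% of all 32851 promoters in the same table held at least 1. The windows of Aqp6, Kit, Foxi1 and Slc26a4 held none of these words, and that of S100g, a connecting tubule gene, held 1.

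The 56 cells carried 337523 and 151535 UMIs in mutants 1 and 2, against 34979 and 48052 in wild types 1 and 2. Their median depth was 12334 and 7528 UMIs per cell in the mutants, against 2988 and 4345.5 in the wild types, so the wild-type values rest on fewer and shallower cells. The 2 deepest cells gave 20.4% and 28.8% of all type A UMIs in the mutants, against 49.0% and 74.1% in the wild types. No type A barcode was shared between libraries, although 97 barcode sequences were kept in more than 1 library. Scrublet called none of the 56 a doublet.

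The edges of the gate differed in how sharp they were. Of cells inside it, 2 had the minimum of 3 pump UMIs, both in wild type, while 15 had a single UMI of Slc4a1, Aqp6 and Kit together (3 and 7 in the mutants, against 5 and 0 in the wild types). Just outside, 0 barcodes failed only by 1 pump UMI, and 1 barcode, in mutant 2, failed only by a single Slc26a4 UMI. Those that failed only by 2 or more Slc26a4 UMIs were 2 and 0 in the mutants, against 2 and 3 in the wild types. The Ptprc and C1q terms alone shut out 12 and 6 barcodes in the mutants, against 3 and 2 in the wild types. The barcodes that met every other term but held 0 UMIs of Slc4a1, Aqp6 and Kit were 77 and 59 in the mutants, against 48 and 13 in the wild types, more than the members themselves. In the type A cells, Aqp6 was seen in 46, Slc4a1 in 31 and Kit in 29, and 17 cells held all 3.

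The label was checked against genes the gate did not use, as a description without a test because the cells were chosen by related genes. Adgrf5, a receptor of type A cells that senses surfactant protein, stood at 596 and 389 UMIs per 1000000 (CPM) in mutant type A cells and 515 and 1041 CPM in wild-type ones, against 95.9, 30.0, 0 and 16.5 CPM in the pendrin-positive cells of the same libraries. Dmrt2, a transcription factor of type A cells, stood at 222 and 72.6 CPM in the mutants and 343 and 166 CPM in the wild types, against at most 9.59 CPM in pendrin-positive cells. Insrr, an insulin receptor relative of type B cells, stood at 5.93 and 13.2 CPM in the mutants and 57.2 and 20.8 CPM in the wild types, against 158 to 313 CPM in pendrin-positive cells. Slc4a9, a bicarbonate transporter usually assigned to type B cells, was not absent: it stood at 358 and 376 CPM in the mutants and 200 and 812 CPM in the wild types, below the 840 to 1624 CPM of pendrin-positive cells. Hepacam2 went against its place on the type A list, since its 169 and 152 CPM in the mutants and 28.6 and 146 CPM in the wild types lay below the 287 to 380 CPM of pendrin-positive cells.

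**Figure D1:**
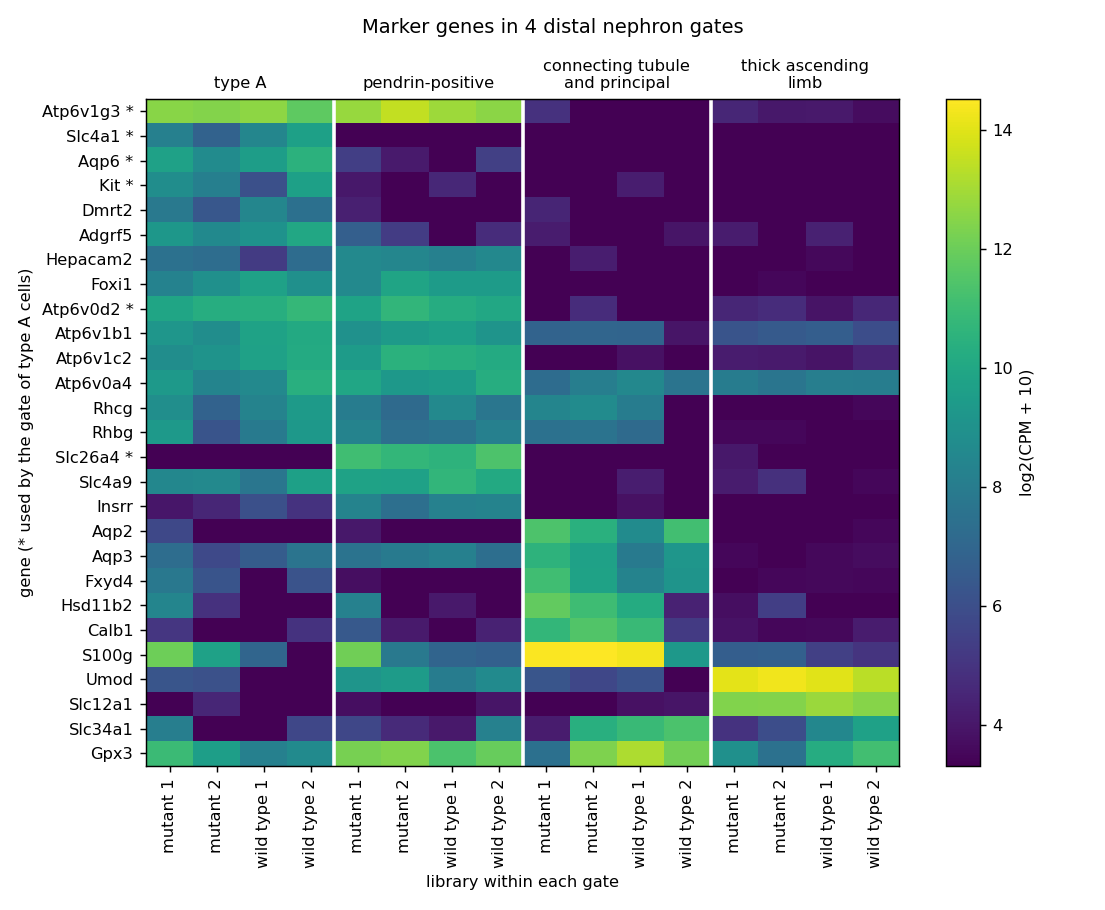
Level of 27 marker genes, as log2(CPM + 10), in each library within 4 gates (type A, pendrin-positive, connecting tubule and principal, thick ascending limb), with an asterisk on genes the type A gate used. Dmrt2 and Adgrf5 are bright in type A columns and dark in pendrin-positive ones, Slc4a9 is present in both, and S100g is brighter in the mutant type A columns than in the wild-type ones.

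Markers of other cells were summed in the type A cells. The 8 proximal tubule markers came to 3031 and 838 CPM in the mutants, against 457 and 853 CPM in the wild types, and 2 cells of mutant 1 held more than 2 UMIs of Slc34a1. One of them, with 34978 UMIs the deepest of the 56 cells, held 65 UMIs of Slc34a1, 20 of Lrp2 and 15 of Aqp2. The other held 18 of Slc34a1 and 17 of Lrp2. Scrublet called neither a doublet, and whether they are mixed barcodes was not tested. The 8 principal cell markers came to 904 and 139 CPM in the mutants, against 85.8 and 499 CPM in the wild types, with Aqp4 at 0. The 4 connecting tubule markers came to 4646 and 851 CPM in the mutants, against 143 and 208 CPM in the wild types, nearly all of it S100g in the mutants. The 7 macrophage markers came to 119 and 152 CPM in the mutants, against 57.2 and 20.8 CPM in the wild types, a sum the gate itself limits. All 4 thick ascending limb markers were seen in mutant cells and came to 121 and 79.2 CPM there, against 0 CPM in both wild types, and the 3 distal convoluted tubule markers, with Pvalb at 0, came to 14.8 and 6.60 CPM, against 0 CPM. The 5 T cell markers, with Cd3d at 0, came to 17.8 and 59.4 CPM in the mutants, against 0 and 41.6 CPM in the wild types. The 4 B cell markers, with Cd79a and Ms4a1 at 0, came to 23.7 and 85.8 CPM in the mutants, against 28.6 and 291 CPM in the wild types. The 5 endothelial markers, with Kdr at 0, came to at most 33.0 CPM in any library, and the 4 fibroblast markers were all at 0.

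The cells inside the gate were of different kinds. Of the 56, 24 had under 1% mitochondrial UMIs and 32 had at least 1%, with 15 cells between 0.5% and 2%. The line at 1% was chosen after the values were seen. Pooled over libraries, cells at or above 1% held 16188 CPM of Malat1, a long RNA kept in the nucleus, against 698 CPM in cells below it. Across the 56 cells the Spearman correlation of mitochondrial share and Malat1 CPM was 0.62, as a description over cells that share libraries and differ in depth. Several genes of type A cells, chosen after their values were seen, were also higher at or above 1%. Rhcg, an ammonia channel, stood at 515 CPM at or above 1%, against 17.6 CPM below, Kit at 550 against 41.1 CPM, Slc4a1 at 383 against 46.9 CPM, and Adgrf5 at 772 against 106 CPM. Atp6v1g3 ran the other way, at 4683 CPM at or above 1%, against 7703 CPM below, as did Foxi1, at 299 against 622 CPM, and Fxyd2, a sodium pump regulator, at 3199 against 14321 CPM. Atp6v0d2 stood at 1135 CPM, against 1097 CPM. The label therefore rests mostly on the 32 cells: Adgrf5, which the gate did not use, was seen in 27 of them and in 7 of the 24 below 1%, where it stood at 205 and 49.9 CPM in the mutants, against 0 CPM in both wild types, and Kit was seen in 4 of the 24. Among the 32, wild type 1 had 4 cells, of which 1 held Adgrf5, and their median Malat1 was 0 CPM. Dmrt2 differed less between the kinds, at 204 CPM at or above 1%, against 141 CPM below. Whether the 24 cells are type A is in doubt.

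Nuclear-encoded mitochondrial genes ran the other way too, given here without a test. The summed level of 36 complex I subunits was 19724 CPM at or above 1% mitochondrial UMIs, against 40952 CPM below it, which is 2.08 times as high, and that of 38 subunits of complexes II to V was 51859 CPM, against 100725 CPM, which is 1.94 times as high. Cycs, the gene for cytochrome c, stood at 1855 CPM at or above 1% against 5474 CPM below. Ribosomal proteins of the cytosol differed less, at 87182 CPM at or above 1%, against 102062 CPM below it. Cells below 1% made up 7 of 24 and 11 of 17 in the mutants, against 5 of 9 and 1 of 6 in the wild types, or 29.2% and 64.7% against 55.6% and 16.7%. The groups overlapped (exact permutation test of the difference, two-sided, p = 0.667, where 2 against 2 libraries cannot go below 0.33).

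**Figure D2:**
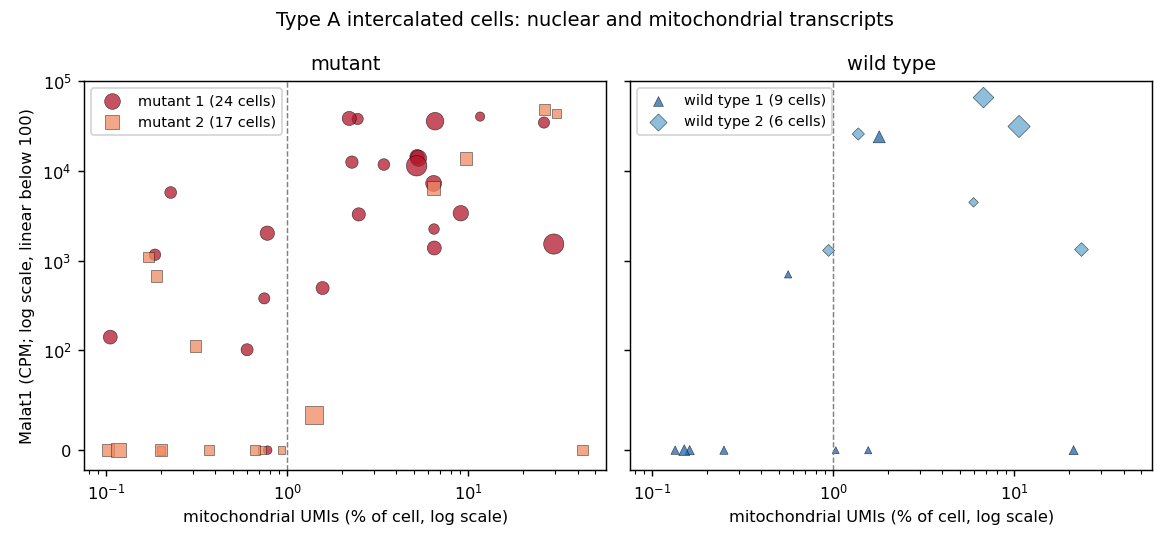
Each point is 1 type A cell, with the share of its UMIs on mitochondrially encoded genes across and its Malat1 level in CPM up, in mutant libraries (left) and wild-type libraries (right); larger points are deeper cells and the dashed line is 1%. Every library has cells on both sides of the line, and most cells with 0 Malat1 UMIs lie left of it.

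Type A cells made up a larger share of the kept barcodes in both mutants, but an exact test of 2 against 2 libraries cannot reach the threshold. The share was 0.246% (95% exact binomial interval 0.157 to 0.365%) and 0.187% (0.109 to 0.300%) in mutants 1 and 2, against 0.156% (0.0714 to 0.296%) and 0.0933% (0.0343 to 0.203%) in wild types 1 and 2. The intervals cover counting error only, and those of all libraries overlap, although both mutant values lay above both wild-type ones. The mean was 0.216 ± 0.041% in mutants and 0.125 ± 0.044% in wild types (SD, n = 2 each, exact permutation test, two-sided, p = 0.33, the smallest the design allows). With at most 25% mitochondrial UMIs per barcode the groups overlapped, at 0.236% and 0.168% in the mutants, against 0.176% and 0.110% in the wild types. Among intercalated cells, counted as type A plus pendrin-positive cells, type A made up 43.6% in each mutant, against 39.1% and 31.6% in the wild types. That difference of 8.26 percentage points became 0.180 with at most 25% mitochondrial UMIs and 3.87 without barcodes that held other tubule markers, and in both cases the groups overlapped. Among the 4 distal gates together, type A made up 15.0% and 9.83% in the mutants, against 6.62% and 6.00% in the wild types (exact permutation test, two-sided, p = 0.33). Sorting, dissociation and the large immune share of each library enter the first of these shares, and their part in the result was not tested.

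Mitochondrially encoded transcripts took 7.17% and 5.78% of type A UMIs in the mutants, against 3.15% and 9.36% in the wild types, so the groups overlapped (mean 6.48 ± 0.98% and 6.26 ± 4.40%, SD, n = 2 each, exact permutation test, two-sided, p = 1). In the cells at or above 1% the share was 8.88% and 12% in the mutants, against 6.61% and 9.94% in the wild types, which overlapped again. Of the 13 mitochondrial mRNAs, 11 were tested and 0 passed the threshold. Both mutants lay above both wild types for 0 of them and below both for 1 (all genes 15.9% and 17.9%). This was mt-Nd3, a complex I subunit, at 462 and 376 CPM in the mutants, against 515 and 3246 CPM in the wild types, with wild type 2 far above the other 3 libraries. The same gene stood below both wild types in both mutants in pendrin-positive cells (1100 and 863 CPM, against 1673 and 4447 CPM) and in thick ascending limb cells (1167 and 1521 CPM, against 2407 and 3703 CPM). mt-Cytb, the complex III cytochrome, stood at 13590 and 7846 CPM in the mutants, against 5861 and 9386 CPM in the wild types, and mt-Co1, the core subunit of complex IV, at 10965 and 8830 CPM, against 4174 and 11758 CPM. The median log2 fold change of the 11 genes was -0.31 in all cells and turned to 0.08 in cells with at least 1% mitochondrial UMIs and to 1.23 without wild type 2.

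For all genes, UMIs were summed per library and tested with the quasi-likelihood test of edgeR, with p-values adjusted by Benjamini-Hochberg. Of 1864 genes tested, 0 passed an adjusted p of 0.05 (0% called), while 130 had an unadjusted p under 0.05 (6.97%). DESeq2 called 0 of 13014. Counts were also simulated at the same library depths, with a spread that did not follow each gene's own. Changes of 2-fold were recovered in 0% of 67 genes, 4-fold in 20.9% of 67 and 8-fold in 62.1% of 66. Small changes were thus not detectable at this depth. The simulation left out single cells that hold most UMIs of a gene, so these recoveries need not hold for the real counts. Both mutants lay above both wild types in CPM for 297 genes (15.9%) and below both for 334 (17.9%). The genes below were chosen by the smallest p among such genes, and all had an adjusted p of 0.71; their values are descriptions, not calls. Positions are those of the whole gene in GENCODE M21.

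Nupr1, a small stress-induced chromatin protein (chr7:126623249-126630861), stood at 942 and 1901 CPM in the mutants, against 257 and 104 CPM in the wild types (log2 fold change 2.98, SE 0.59). Both mutants lay above both wild types, but 1 cell held 71.2% of the Nupr1 UMIs of mutant 2. S100g, the calcium-binding protein calbindin-D9k of the connecting tubule (chrX:162961992-162964599), stood at 4225 and 838 CPM in the mutants, against 114 and 0 CPM in the wild types (log2 fold change 5.65, SE 1.26). Again a few cells carried it, with 68.9% of its UMIs in 1 cell of mutant 1 and 81.1% in 1 cell of mutant 2. Immune barcodes, which should lack it, held 184 and 24.9 CPM in the mutants, against 50.6 and 8.06 CPM in the wild types, and connecting tubule and principal cells held 22194 and 23423 CPM in the mutants, against 20155 and 615 CPM in the wild types. In wild type 2 the connecting tubule and principal gate held 27.7 CPM of Calb1 and 11.1 CPM of Hsd11b2. Each other library held at least 1679 and 1165 CPM of them there. Aqp2, at 2194 CPM, lay within the range of the other libraries. The gate thus held a different mix of cells in wild type 2. Without barcodes that held other tubule markers the S100g log2 fold change in type A cells was 4.50. The part of neighbouring cell types in the S100g value was not tested.

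Clu, the secreted chaperone clusterin of injured tubules (chr14:65968483-65981547), stood at 1472 and 508 CPM in the mutants, against 57.2 and 187 CPM in the wild types (log2 fold change 2.83, SE 0.86). In both mutants Clu also lay above both wild types in connecting tubule and principal cells (6299 and 4611 CPM, against 2561 and 421 CPM) and in thick ascending limb cells (165 and 287 CPM, against 27.7 and 6.91 CPM). Cdkn1a, the cell-cycle inhibitor p21 (chr17:29090976-29100727), had 82 UMIs in mutant type A cells (121 and 271 CPM) and 0 in wild-type ones; against a floor of 3 UMIs over the wild-type group the pooled level was at least 4.64-fold higher. The floor covers counting error only. Tmem158, a membrane protein induced by Ras signalling, had 127 and 132 CPM in the mutants and 0 CPM in both wild types, a pooled level at least 3.56-fold higher by the same floor.

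Ftl1, the ferritin light chain that stores iron (chr7:45457944-45459884), was seen in all 56 cells and stood at 4572 and 4850 CPM in the mutants, against 1915 and 1540 CPM in the wild types (log2 fold change 1.39, SE 0.45). Gsta2, a glutathione transferase, stood at 231 and 739 CPM in the mutants, against 57.2 and 83.2 CPM in the wild types. In proximal tubule barcodes it stood at 2116 and 2252 CPM in the mutants, against 2306 and 1170 CPM in the wild types. Cd74, the invariant chain of MHC class II, stood at 364 and 396 CPM in the mutants, against 85.8 and 62.4 CPM in the wild types. Cd74 is carried by immune cells, and in immune barcodes it stood at 38300 and 22009 CPM in the mutants, against 28258 and 5919 CPM in the wild types. Tmem176b and Pgam2, a muscle-type phosphoglycerate mutase, complete the 10 genes on this side, at 859 and 409 against 114 and 62.4 CPM, and at 258 and 139 against 28.6 and 0 CPM.

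On the lower side, Sult1d1, a sulfotransferase (chr5:87554645-87569027), stood at 65.2 and 72.6 CPM in the mutants, against 543 and 354 CPM in the wild types (log2 fold change -2.72, SE 0.50). Fgf12, an intracellular FGF homologous factor, stood at 62.2 and 52.8 CPM in the mutants, against 572 and 250 CPM in the wild types (log2 fold change -2.77, SE 0.56). Tshr, the thyrotropin receptor (chr12:91384563-91549808), stood at 17.8 and 13.2 CPM in the mutants, against 143 and 166 CPM in the wild types (log2 fold change -3.29, SE 0.68). In wild type 1 every Tshr UMI came from 1 cell. Pendrin-positive cells also held less Tshr in both mutants, at 109 and 75 CPM, against 168 and 308 CPM in the wild types. The other genes on this side were Mapk9, which encodes the kinase JNK2, Vps13b, Cdkl1, Virma, a subunit of the RNA methylation machinery, Tesk2, Tbc1d5 and Srsf11, with log2 fold changes of -1.87 to -3.07. Cdkl1, a kinase, had the most UMIs of these and stood at 240 and 238 CPM in the mutants, against 915 and 770 CPM in the wild types. Malat1 stood at 11288 and 5326 CPM in the mutants, against 6747 and 36794 CPM in the wild types, where 1 cell of wild type 1 held 99.6% of that library's Malat1 UMIs; the part of nuclear RNA content in these genes was not tested.

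**Figure D3:**
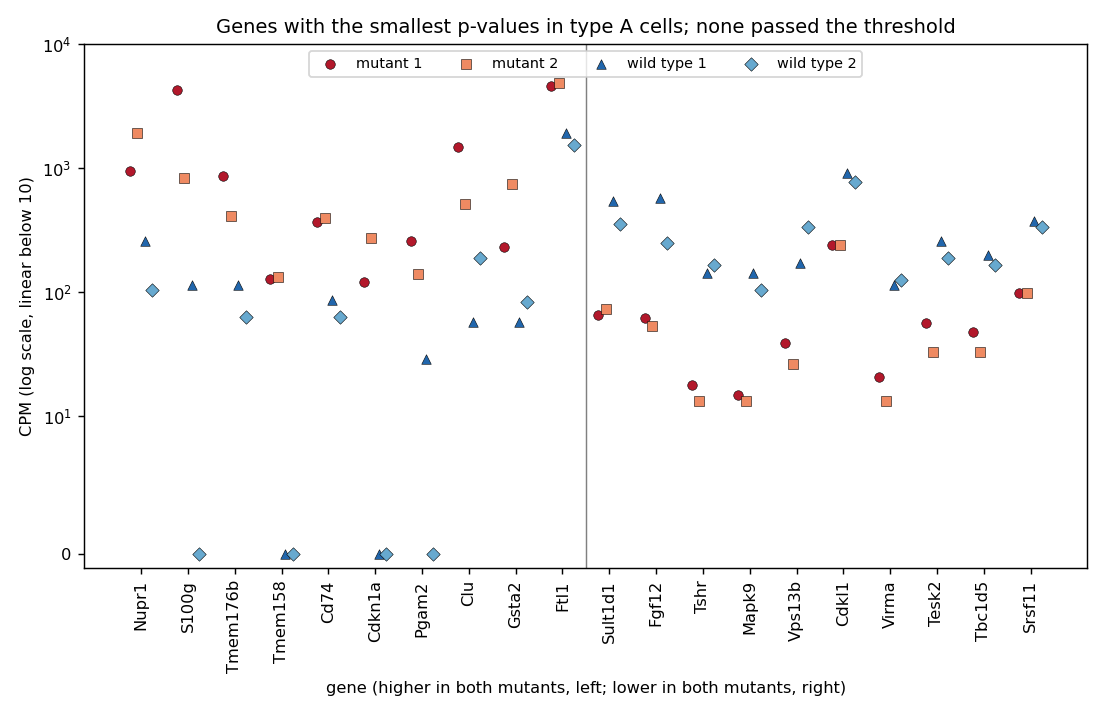
Level in CPM (log scale, linear below 10) of the 20 genes named by smallest p in type A cells, 1 point per library, with mutants left of wild types within each gene. By the choice of genes both mutants lie above both wild types in the left 10 and below both in the right 10; none passed the adjusted threshold.

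The proton pump, the machine that defines these cells, overlapped between the groups in summed level. Without Atp6v1g3 and Atp6v0d2, which the gate used, its 22 genes came to 15762 and 12334 CPM in the mutants, against 13780 and 14151 CPM in the wild types; with them the sums were 22579 and 19078 CPM, against 21413 and 19292 CPM. Of 15 subunits tested without the gate genes, 0 passed the threshold, 0 lay above both wild types in both mutants and 4 lay below both (all genes 15.9% above and 17.9% below). The median log2 fold change was -0.00, against 0.00 over all genes tested. It ran from -0.53 without mutant 1 to 0.44 without wild type 2, while the median of all genes was -0.16 and 0.20 in those fits. The 4 were Atp6v1c2, Atp6v1b1, Atp6v1h and Atp6v1d. Atp6v1c2, the C2 subunit of the stalk, stood at 444 and 528 CPM in the mutants, against 829 and 1124 CPM in the wild types (log2 fold change -1.13, SE 0.49, edgeR adjusted p = 0.72), and Atp6v1b1, the intercalated B1 subunit that binds ATP and whose promoter is printed above, at 581 and 436 CPM, against 858 and 1103 CPM (log2 fold change -1.05, SE 0.49, edgeR adjusted p = 0.72). Of the gate genes, Atp6v1g3 stood at 5860 and 5490 CPM in the mutants, against 6347 and 3371 CPM in the wild types, and Atp6v0d2 at 957 and 1254 CPM, against 1286 and 1769 CPM.

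**Figure D4:**
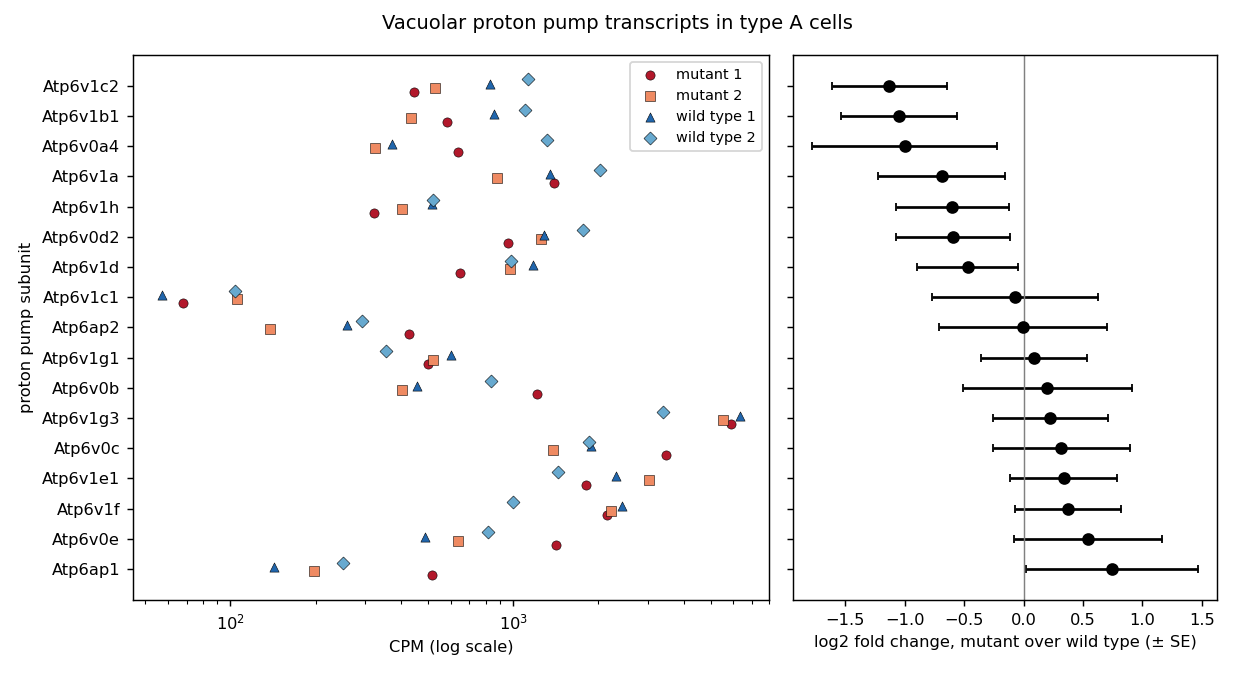
Left, level in CPM (log scale) of the 17 tested proton pump subunits in each library of type A cells; right, the log2 fold change of mutant over wild type with its standard error. The subunits are ordered by fold change, from Atp6v1c2 at -1.13 to Atp6ap1 at 0.75, and none passed the threshold. The gate used Atp6v1g3 and Atp6v0d2.

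Acid-base transporters and intercalated regulators had mostly negative fold changes and 0 calls. Without the gate genes Slc4a1 and Slc26a4, 10 of 22 transport and related genes were tested and 0 passed; 1 lay above and 1 below both wild types in both mutants (all genes 15.9% and 17.9%). The median log2 fold change was -0.61. It was -1.43 without mutant 1 and -0.15 without mutant 2, and turned to 1.04 without wild type 2. The gate gene Slc4a1 stood at 281 and 106 CPM in the mutants, against 343 and 812 CPM in the wild types, and Car2, the carbonic anhydrase that supplies protons and the 1 gene below both, at 2462 and 3121 CPM, against 4488 and 3351 CPM. Clcn5, an endosomal chloride exchanger, was the 1 above both, at 344 and 304 CPM in the mutants, against 28.6 and 229 CPM in the wild types. Of 10 regulators, 5 were tested and 0 passed, with a median of -0.72 that was -1.26 without mutant 1 and -0.44 without mutant 2 and turned to 0.04 without wild type 1. Tfcp2l1, a transcription factor of intercalated cells, stood at 1031 and 640 CPM in the mutants, against 1315 and 1457 CPM in the wild types, and Foxi1 at 299 and 482 CPM, against 829 and 479 CPM.

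Stress and injury genes had mostly positive fold changes, again with 0 calls. Of 23 tubular injury genes, 11 were tested, 10 had a positive log2 fold change, 6 lay above both wild types in both mutants and 0 below, with a median of 1.23. Over all 1864 genes, 934 were positive, 15.9% lay above and 17.9% below. Their summed level was 11507 and 5510 CPM in the mutants, against 4660 and 2872 CPM in the wild types. Krt18 and Krt8, keratins of stressed epithelium, were among the 6, at 329 and 211 against 143 and 20.8 CPM and at 204 and 139 against 85.8 and 0 CPM. Without mutant 1 the median was 0.36 (10 tested), and without wild type 1 it was 2.13 (14 tested). Of 27 integrated stress response genes only 3 could be tested, Nupr1, Atf5 and Atf4. The list summed to 1834 and 3088 CPM in the mutants, against 658 and 499 CPM in the wild types, and to 892 and 1188 CPM, against 400 and 395 CPM, without Nupr1. In pendrin-positive cells the list ran the other way, at 716 and 818 CPM in the mutants, against 1141 and 1523 CPM in the wild types. The groups overlapped in thick ascending limb cells and in connecting tubule and principal cells. Atf5, a factor of mitochondrial stress signalling, stood at 133 and 218 CPM in the mutants, against 57.2 and 0 CPM in the wild types, while Atf4, the central factor of this response, overlapped at 65.2 and 165 CPM, against 57.2 and 125 CPM. Of 13 mitochondrial chaperones and proteases, 4 were tested and 0 passed; Hspa9, the mitochondrial Hsp70, stood at 308 and 680 CPM in the mutants, against 229 and 187 CPM in the wild types.

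Ribosomal protein genes, a list added by name pattern after the data were seen, had the most members on 1 side. Of 79 tested cytosolic ones, 75 had a positive log2 fold change, 54 lay above both wild types in both mutants and 0 below, with a median of 0.49 and 0 calls. All genes gave 934 positive of 1864, with 15.9% above and 17.9% below. Without wild type 1 the median was 1.07. The positive count was 73 with library totals and 75 with RLE size factors in place of TMM. They summed to 95075 and 98452 CPM in the mutants, against 82764 and 52194 CPM in the wild types. Rpl29 stood at 963 and 1188 CPM in the mutants, against 429 and 437 CPM in the wild types. Of 48 tested mitochondrial ribosomal proteins, 14 lay above both wild types and 0 below (all genes 15.9% and 17.9%), with a median of 0.34 and 0 calls. The median was 0.08 without mutant 2, 0.12 without wild type 2 and 1.06 without wild type 1. They summed to 10310 and 14234 CPM, against 13008 and 6264 CPM.

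Energy genes overlapped between the groups. Complex I subunits from nuclear genes summed to 22384 and 35761 CPM in the mutants, against 34163 and 15254 CPM in the wild types; all 36 were tested, 3 lay above both wild types and 1 below (all genes 15.9% and 17.9%), and 0 passed. Their median of 0.30 was 0.57 without mutant 1, -0.01 without mutant 2, 1.06 without wild type 1 and 0.08 without wild type 2. The 38 genes of complexes II to V summed to 58156 and 86343 CPM, against 93599 and 41830 CPM, with 0 above and 0 below. Their median of 0.17 was 0.32 without mutant 1, 1.00 without wild type 1, -0.12 without mutant 2 and -0.01 without wild type 2. Mutant 2 and wild type 1, the libraries with the highest share of cells under 1% mitochondrial UMIs, were the high ones in both lists, and in cells at or above 1% the complex I sum was 20416 and 20298 CPM in the mutants, against 23062 and 13475 CPM in the wild types. Glycolysis and hypoxia genes (12 tested of 22, median 0.31), genes of the TCA cycle (16 of 16, median 0.09) and of fatty acid oxidation (11 of 18, median 0.10) gave 0 calls, and their sums were also highest in mutant 2 and wild type 1. Without mutant 1 these medians were 0.58, 0.37 and 0.33, without mutant 2 they were -0.00, -0.25 and -0.28, without wild type 1 they were 1.27, 0.68 and 0.56, and without wild type 2 they were 0.10, -0.11 and -0.04. Of 13 antioxidant genes, 7 were tested and 0 passed, with Txnrd1, the cytosolic thioredoxin reductase, at 121 and 264 CPM in the mutants, against 28.6 and 62.4 CPM in the wild types, and Gclc, which makes glutathione precursor, the other way at 219 and 152 CPM, against 600 and 375 CPM.

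Immune-related genes were sparse. Of 17 antigen presentation genes, 5 were tested, 5 had a positive log2 fold change and 3 lay above both wild types in both mutants (all genes 15.9%), with 0 calls. The median of 0.84 was 0.07 without mutant 1 (3 tested), 1.51 without mutant 2 (4 tested), 2.76 without wild type 1 (9 tested) and 3.07 without wild type 2 (9 tested). These medians thus cover different genes. Macrophage markers came to 119 and 152 CPM in the mutants, against 57.2 and 20.8 CPM in the wild types, and their part in this was not tested. H2-D1 stood at 527 and 185 CPM in the mutants, against 57.2 and 166 CPM in the wild types. None of 22 interferon response genes had enough UMIs to be tested; they summed to 353 and 290 CPM in the mutants, against 28.6 and 125 CPM in the wild types. Of 18 defence and inflammation genes, 3 were tested and 0 passed. Defb1, a defensin secreted by the distal nephron, stood at 5333 and 1320 CPM in the mutants, against 1973 and 2539 CPM in the wild types. Immediate early genes (7 tested of 22) and p53 targets (4 of 12) gave 0 calls, and their sums overlapped, at 4376 and 977 against 1201 and 2664 CPM and at 747 and 831 against 257 and 874 CPM.

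**Figure D5:**
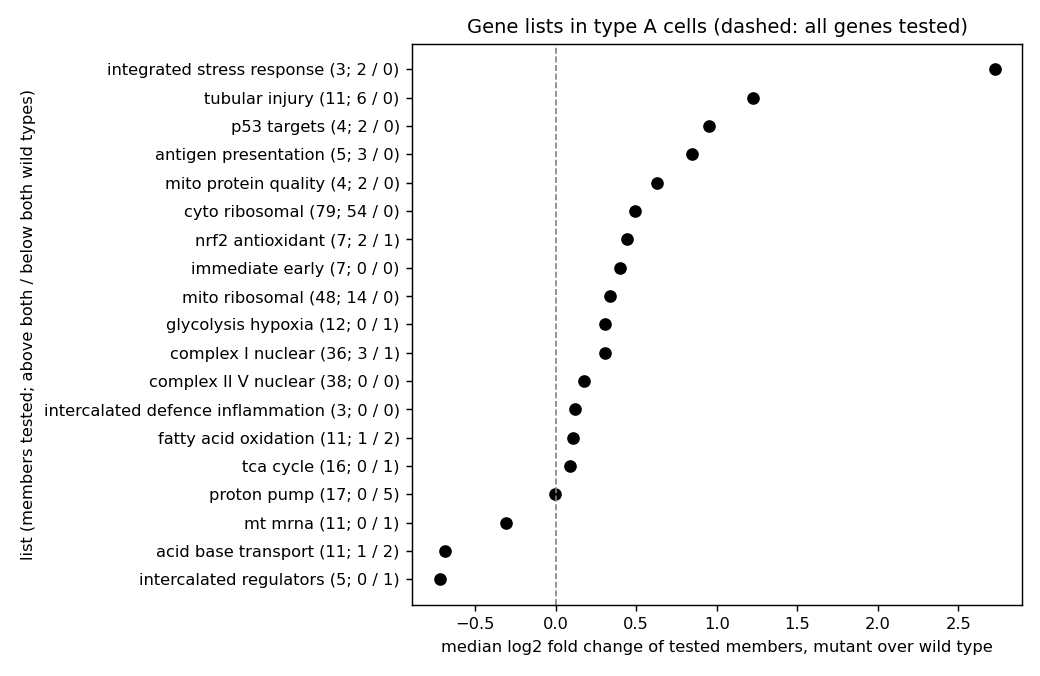
Median log2 fold change, mutant over wild type, of the tested members of 19 gene lists in type A cells; the label gives how many were tested and how many lay above both and below both wild types in both mutants. The dashed line is the median of all 1864 genes (0.00); injury and stress lists lie to its right, acid-base transport and intercalated regulators to its left, and no member of any list passed the threshold. The proton pump and acid-base lists are drawn with their gate genes.

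Limiting the fit to the 32 cells with at least 1% mitochondrial UMIs, a choice made after the values were seen, called 45 of 1051 genes (4.28%), 7 higher (0.666%) and 38 lower (3.62%) in the mutants. The count was 43 with RLE size factors and 46 with mitochondrial genes left out. It is given as a description, since it was 3 without either mutant, 10 without wild type 1, 0 without wild type 2, 0 with library totals, 0 with the replicate number as a block and 2 with DESeq2. S100g was called most often, in 7 of the 10 alternatives of that fit. The proton pump subunit Atp6v1c2 was among the lower genes (log2 fold change -1.52, edgeR adjusted p = 0.044), but was called in only 1 of the 10 alternatives. The fit at or above 1% used 4 cells of wild type 1, of which 1 gave 9819 of 16087 UMIs and was the only 1 with Adgrf5. Cells below 1% gave 0 calls of 830 tested.

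Whether the mutant effect in type A cells differed from that in other distal cells was tested with an interaction term, each library being a block. The connecting tubule and principal gate held a different mix of cells in wild type 2, as given above, and the part of this was not tested. Against connecting tubule and principal cells, 0 of 4531 genes passed (edgeR, 0% called, with 156 at an unadjusted p under 0.05). That count was 4 without mutant 1, 60 without mutant 2 and 15 without wild type 1. Against thick ascending limb cells, 24 of 7801 passed (0.308% called), 22 with a more positive and 2 with a more negative effect in type A cells. Of the 24, 21 were more than 2 times higher in proximal tubule barcodes than in thick ascending limb ones, and 14 had 0 UMIs in type A cells of 1 group. Neither share was computed over all 7801 genes, so these counts have no background to be read against. Slc34a1, the phosphate transporter of the proximal tubule, shows the form: 267 and 0 CPM in mutant type A cells and 0 and 41.6 CPM in wild-type ones, but 20.8 and 53 CPM in mutant and 350 and 838 CPM in wild-type thick ascending limb cells. In mutant 1, 65 and 18 of the Slc34a1 UMIs sat in 2 type A cells, those that also held Lrp2 as given above. Those of the 20 genes above that passed this edgeR interaction test were Cdkn1a (adjusted p = 0.00275), Gsta2 (0.0108), which is among the genes higher in proximal tubule barcodes, and Tshr (0.0114). They had been chosen by their type A values in these same counts, so their passing is not independent of that choice. Cdkn1a had 0 UMIs in wild-type type A cells, and the size of its difference rests on that 0. Tshr was lower in mutant type A cells but stood at 52.8 and 31.0 CPM in mutant and 19.1 and 15.2 CPM in wild-type thick ascending limb cells. The count was 3 without mutant 1, 15 without wild type 2 and 7 with the replicate number in place of the library as the block.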

How the data were processed

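Per the labels' protocols, viable kidney cells were sorted after dissociation and put through 10x 3′ chemistry. The authors deposited unnormalized UMI counts by gene and cell barcode. Per the file headers, Cell Ranger was version 7.0.0 in mutant and 7.1.0 in wild-type libraries, so version and group cannot be told apart. The mm10 build is per the submitters' processing notes; the annotation release is not given in the sources used here. Libraries held 65565948 and 70013861 UMIs in the mutants, against 42121175 and 59946996 in the wild types. The members, gene lists and named-gene rule (both mutants above or below both wild types, mean at least 30 CPM, predicted and gate genes passed over, smallest p where none passed; up to 4 members of each list) were chosen with earlier results of these data known.

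UMIs were summed per library and gate and tested with edgeR 4.0.16 (R 4.3.3; filterByExpr, TMM, quasi-likelihood test, adjusted p under 0.05), which was tested on simulated data. DESeq2 1.42.0 was an alternative. Scrublet was run in scanpy 1.11.5 and its calls were removed only as an alternative. With 1 library per mouse, p-values measure the spread between these libraries, in which mouse, preparation and the few cells caught cannot be told apart. A share of cells cannot tell fewer cells of a type from fewer recovered. The proton pump and acid-base lists were also summarised without their gate genes, a choice made after seeing the data. The filter was rerun in each refit, so the tested members behind a list median can differ between refits. Positions are from GENCODE M21. The genotype was not checked in the counts.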

Additional observations from a re-analysis of the deposited data

Results flagged for a closer look

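The mutant effect differed between type A intercalated cells and thick ascending limb cells for 24 genes (edgeR interaction test with the library as a block, adjusted p under 0.05). Of these, 21 were more than 2 times higher in proximal tubule barcodes than in thick ascending limb ones. That share was not computed over all 7801 genes tested. Among the genes named by smallest p, Cdkn1a (adjusted p = 0.00275), Gsta2 (adjusted p = 0.0108) and Tshr (adjusted p = 0.0114) passed this test. These genes had been chosen by their type A values in the same counts, so their passing is not independent of that choice. Cdkn1a had 0 UMIs in wild-type type A cells, and the size of its difference rests on that 0. Proximal tubule markers in the type A cells came to 3031 and 838 CPM in the mutants, against 457 and 853 CPM in the wild types, and their part in the 24 genes was not tested.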

How the results depend on the processing

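The count of genes past the threshold in type A cells was 0 in 16 of the other 20 settings, among them RLE factors, library totals, DESeq2, removal of doublet calls and the replicate block. It was 6 without a filter on low counts, 45 in cells with at least 1% mitochondrial UMIs, 81 with a crossed replicate block and 0 to 1 with each library left out. The sample titles number the replicates but state no pairing of mice. Deviations of same-numbered libraries correlated at -0.45 over 1864 genes, and the replicate block gave 0 calls. With 2 libraries per group this correlation cannot show whether mice were paired. The crossed block sets mutant 1 with wild type 2 and mutant 2 with wild type 1 and was not planned. It follows the sign of that correlation in the same counts, so its 81 calls are a description. In the cells with at least 1%, the 45 calls became 0 with library totals, 0 with the replicate block, 2 with DESeq2, 12 without a filter and 0 to 10 with each library left out. The 0 differences from connecting tubule and principal cells became 16 without a filter and 0 to 60 with each library left out, 60 without mutant 2. The 24 differences from thick ascending limb cells became 7 with the replicate block and 3 to 32 with each library left out. The mutant minus wild-type difference in mitochondrial share was 0.222 percentage points, turned to -3.28 with at most 25% mitochondrial UMIs, and ran from -2.89 to 3.33 with each library left out, -0.473 without mutant 1. The differences in the type A share of kept barcodes and of intercalated cells kept their sign in every planned setting. Among barcodes under 1% mitochondrial UMIs, which was not planned, type A made up 58.3% and 57.9% of intercalated cells in the mutants. The wild types stood at 83.3% and 50.0% there, with the higher mean. The 20 named genes kept their direction in all 358 pairings of a gene with another setting, with 33 passing the threshold, 19 of them under the crossed block. These genes were chosen because both mutants lay on the same side of both wild types. The kept direction was thus largely fixed by that choice. The cause of these moves was not tested. Depth limits the wild types most, with 9 and 6 cells.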
